A study of Mus musculus with 16 samples.

Results

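Granulocyte-monocyte progenitors (GMPs) of mice that drank antibiotic water were compared with GMPs of mice that drank control water. The comparison used the 5 arrays labelled GMP, 3 from antibiotic water and 2 from control water, out of 16 arrays in all. The 11 other arrays held common myeloid progenitors (CMPs, 3 and 3) and committed monocyte progenitors (cMoPs, 3 and 2) and entered the fit as further groups. Per the labels, all mice were wild-type C57BL/6, and both kinds of water held 2% sucrose, so the control mice drank sweetened water too. The antibiotic water also held vancomycin, neomycin, metronidazole and ampicillin, 1 g/L of each, and was given for 3 weeks. GMPs were sorted as lineage-negative, c-Kit+, CD105-, CD115- cells with high CD16/32, and the lineage panel included Sca-1, CD11b and Ly6G. The labels give neither age nor sex, and do not say whether an array holds 1 mouse or a pool. The p-values therefore reflect only how these samples vary, which may be partly technical. They also do not say whether CMPs, GMPs and cMoPs of the same number came from the same mice.

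GMPs are bone-marrow progenitors that give rise to neutrophils and monocytes. They begin to make the enzymes of primary (azurophilic) granules, such as myeloperoxidase and neutrophil elastase, under transcription factors that include PU.1 and C/EBP proteins. Signals from gut microbes are known to reach the bone marrow and to influence myelopoiesis, and oral antibiotics are a common way to deplete those microbes.

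A gene was counted as called where the adjusted p of limma (Benjamini-Hochberg over 22180 genes) was under 0.2, the false discovery rate stated for the study. Each value is a log2 signal on 1 array, and each difference is antibiotic minus control in log2, with its standard error. In GMPs, 16 genes were called (0.0721% of the genes tested), 11 higher (0.0496%) and 5 lower (0.0225%) after antibiotics. The 11 higher genes were Car1, A930041C12Rik, Clec4b2, Snord13, Chil3, Gm5785, Clec4a2, BC051142, Zbtb16, Cep135 and Fmnl2, with differences from 1.03 to 1.78. The 5 lower genes were Mir23a, Ppic, Smco4, Hormad2 and Ly96, with differences from -2.15 to -1.04. At a rate under 0.05 there were 2 calls (0.00902%), Car1 and Snord13. An unadjusted p under 0.05 was found for 1662 genes (7.49%), 3.27% higher and 4.22% lower, and the median difference of all genes was -0.01.

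The small groups limit these calls. Car1 and Snord13 were called whichever of the 16 arrays was left out. Each of the other 14 called genes lost its call when 1 or more of the GMP arrays was left out. Without antibiotic replicate 1, and likewise without antibiotic replicate 2, the calls fell to those 2 genes. Without antibiotic replicate 3 there were 42 calls, 21 in each direction, which included 15 of the 16. Leaving out control replicate 1 gave 15 calls with 5 of the 16 among them, and leaving out control replicate 2 gave 16 calls with 6 of the 16 among them. Antibiotic replicate 3 lay closest to the controls of the 3 antibiotic arrays in 9 of the 11 higher genes and in 2 of the 5 lower genes, against 38.4% of all genes whose arrays did not overlap. Arrays of the same water correlated across genes at r = 0.987 to 0.990 (4 pairs), and arrays of different waters at 0.986 to 0.989 (6 pairs), so no GMP array stood apart over all genes.

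**Figure D1:**
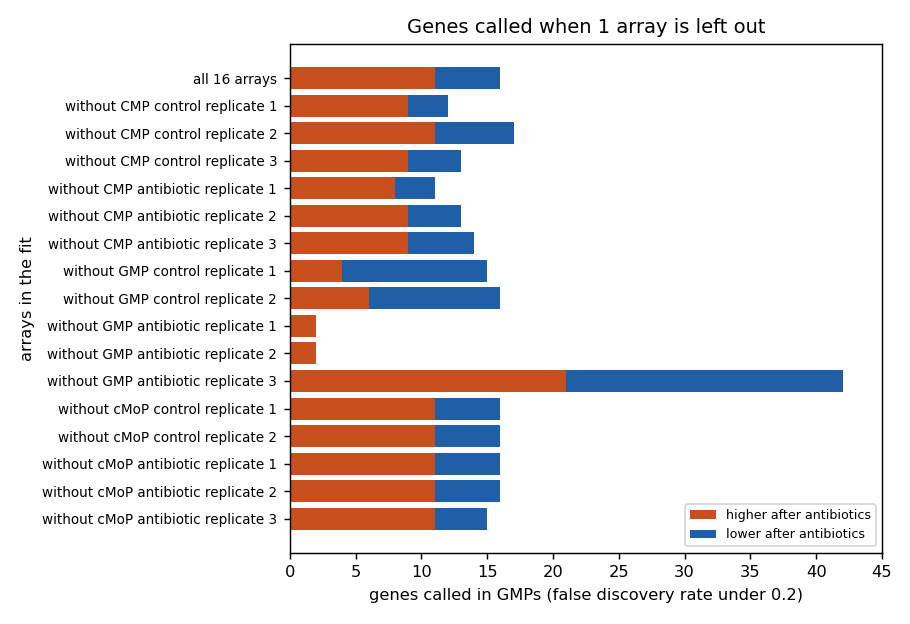
Bars show the number of genes called in GMPs (x axis) for the fit on all 16 arrays and for each fit without 1 array (y axis), split into genes higher and lower after antibiotics. The count of 16 falls to 2 without antibiotic replicate 1 or 2 of the GMPs and reaches 42 without antibiotic replicate 3.

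All 16 called genes differed at least 2-fold, as did 78 genes in all (43 higher and 35 lower). Their arrays did not overlap between the waters, and the smallest gap was 0.57. Over all genes, the antibiotic arrays lay wholly above the control arrays for 10.4% and wholly below them for 12.6%, so arrays that do not overlap are common with groups of this size. The file has no detection calls, and the lower quartile of the GMP arrays lay at 2.93 to 2.98. For BC051142 in the control arrays, and for Hormad2 and Mir23a in the antibiotic arrays, the group mean was below that level, so the size of these differences is uncertain. Each of the 16 genes had 1 probe set.

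**Figure D2:**
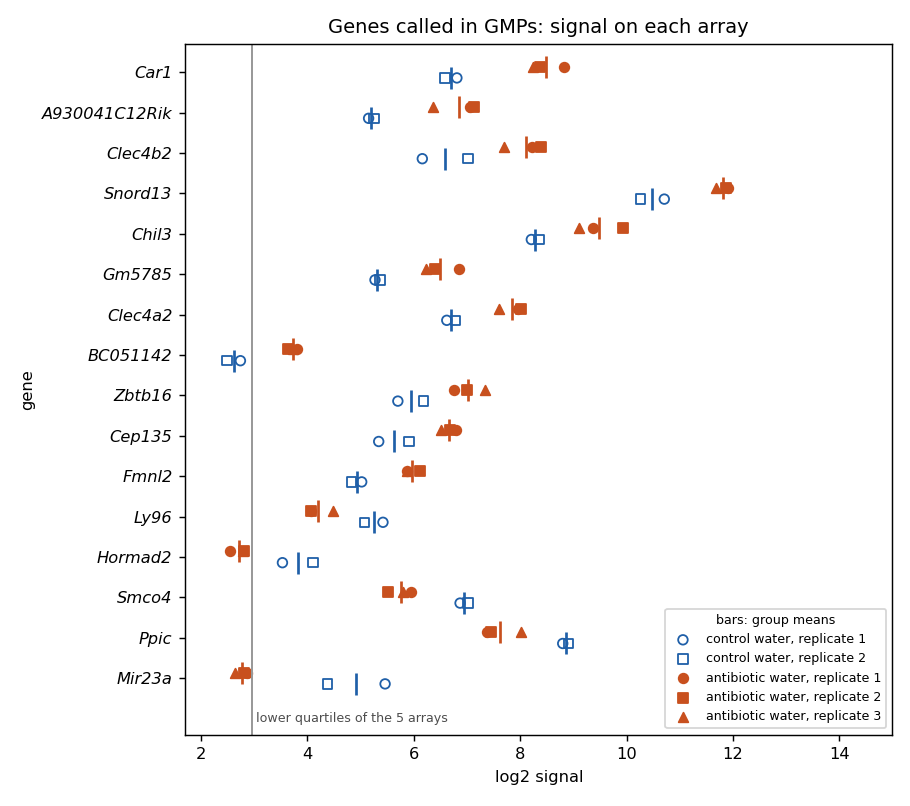
Log2 signal (x axis) of each of the 5 GMP arrays for the 16 called genes (y axis), with open symbols for control water, filled symbols for antibiotic water and vertical bars for group means. In each gene the arrays of the waters are separate, by at least 0.57, and the grey lines at 2.93 to 2.98 are the lower quartiles of the arrays.

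Mir23a, the gene of microRNA 23a, had the lowest difference of all called genes, and its mature sequences are shown with those of its neighbour Mir27a. A microRNA pairs with its targets mainly through its seed, bases 2 to 8, which is in capitals. The sequences are from RefSeq (GRCm38.p6), 5′ to 3′.
mmu-miR-23a-5p: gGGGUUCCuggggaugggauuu
mmu-miR-23a-3p: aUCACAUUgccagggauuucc
mmu-miR-27a-5p: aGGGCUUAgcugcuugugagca
mmu-miR-27a-3p: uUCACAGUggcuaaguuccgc
The Mir23a hairpin lies at chr8:84208518-84208592 and the Mir27a hairpin at chr8:84208672-84208758, both on the + strand with 79 bases between them. The seeds of these sequences differ from each other. Mir23b, on another chromosome, is a known relative whose 3p arm has the seed of miR-23a-3p, and its sequences are not shown here.

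Mir23a read 5.46 and 4.38 on the control arrays. After antibiotics it read 2.86, 2.81 and 2.64. Both control arrays were higher than the antibiotic arrays, but they lay 1.08 apart, and the antibiotic arrays were at the dim end of the array. The difference was -2.15 ± 0.35 (4.44-fold lower, adjusted p = 0.06006). Across the alternative settings it ranged from -2.69 to -1.61, both ends from leaving out a control array. Mir27a, its close neighbour, showed no such pattern. It read 2.83 and 5.24 on the control arrays and 4.76, 3.77 and 4.28 on the antibiotic arrays, so the groups overlapped (0.23 ± 0.51, adjusted p = 0.9521). Mir23b differed by 0.27 ± 0.51 (adjusted p = 0.9444). Mir24-2, also of this cluster, lies on probe sets with 2 symbols and was not used here. Whether these probe sets detect the primary transcript, the hairpin or the mature microRNA was not tested.

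Of 46 microRNA genes listed for their roles in myeloid cells, 32 were measured, and Mir23a was the 1 called. A total of 18 differed above 0 and 14 below it, with a median of 0.03, and 15 were below the lower quartile. Mir142, a microRNA abundant in blood cells, read 5.40 and 5.03 on the control arrays and 6.89, 5.70 and 5.93 on the antibiotic arrays (0.96 ± 0.42, adjusted p = 0.6397). Mir212 differed by 0.43 (adjusted p = 0.6094) and Mir34a by 0.38 (adjusted p = 0.6494). Over all 472 microRNA genes measured, 236 lay above 0 and 236 below it. Their differences ran from -2.15 in Mir23a to 2.12 in a gene that was not called.

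Snord13, a small nucleolar RNA that takes part in the maturation of ribosomal RNA, was 1 of the 2 genes called at the stricter rate. It read 10.71 and 10.26 on the control arrays and 11.91, 11.87 and 11.68 on the antibiotic arrays. The antibiotic arrays were close together and all above the controls, by 1.33 ± 0.17 (2.52-fold, adjusted p = 0.009324). Of 78 small nucleolar RNA genes measured, Snord13 was the 1 called. In that family 44 genes differed above 0 and 34 below it (median 0.07). Snord72 read 4.11 and 4.30 against 5.89, 5.06 and 5.54 (1.29 ± 0.42, adjusted p = 0.5095). Snord82 lay the other way (-0.76 ± 0.31, adjusted p = 0.6106). Differences in the family ran from -1.535, in a gene that was not called, to 1.335 in Snord13.

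Clec4a2 and Clec4b2 encode C-type lectin receptors of the dendritic cell immunoreceptor family on myeloid cells. Clec4a2 read 6.62 and 6.78 on the control arrays and 7.95, 8.01 and 7.60 on the antibiotic arrays. It was higher by 1.15 ± 0.18 (2.22-fold, adjusted p = 0.06006). Clec4b2 read 6.16 and 7.02 on the control arrays and 8.23, 8.40 and 7.70 on the antibiotic arrays. It was higher by 1.52 ± 0.26 (2.87-fold, adjusted p = 0.07281), with control replicate 1 the lowest array. In both genes antibiotic replicate 3 lay nearest the controls. Over both waters, Clec4b2 was also higher in GMPs than in CMPs by 3.76 and than in cMoPs by 2.35. The Clec4 family had 11 measured genes, of which these were the 2 called. Clec4b1 (0.28 ± 0.22, adjusted p = 0.834) and Clec4n (-0.18 ± 0.17, adjusted p = 0.8572) were not.

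The pair are neighbours on chromosome 6, with 0 genes listed between them in RefSeq. The 250 bases before the start of each gene (GRCm38.p6, + strand) are printed because both genes were higher in the same arrays.
Clec4a2, chr6:123122440-123122689: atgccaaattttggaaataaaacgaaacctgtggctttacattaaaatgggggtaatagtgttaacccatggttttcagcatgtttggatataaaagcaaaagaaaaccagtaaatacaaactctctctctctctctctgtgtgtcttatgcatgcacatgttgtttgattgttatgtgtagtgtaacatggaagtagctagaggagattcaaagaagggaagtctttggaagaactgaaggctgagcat
Clec4b2, chr6:123172773-123173022: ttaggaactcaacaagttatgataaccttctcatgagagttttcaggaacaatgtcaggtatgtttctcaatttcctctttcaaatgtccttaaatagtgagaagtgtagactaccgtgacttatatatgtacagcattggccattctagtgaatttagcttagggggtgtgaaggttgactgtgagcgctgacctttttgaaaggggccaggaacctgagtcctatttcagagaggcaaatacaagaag
Neither window held, on either strand, the letters searched for GATA factors (AGATAA), PU.1 (GAGGAAGT), C/EBP (TTGCNNAA) or interferon-stimulated response elements (GAAANNGAA). Of 32851 such windows, these were in 9.99%, 2.44%, 9.56% and 7.13% in that order. Among the 10 called genes with a window, Chil3 held the GATA and the response-element letters and Smco4 the C/EBP letters. A match or its absence in 250 bases is a description of these letters only.

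Car1 encodes carbonic anhydrase 1, which is abundant in erythroid cells. It read 6.81 and 6.59 on the control arrays and 8.82, 8.38 and 8.25 on the antibiotic arrays. The antibiotic arrays were all above both controls, by 1.78 ± 0.20 (3.44-fold, adjusted p = 0.003077), the lowest adjusted p of the comparison. Over both waters, Car1 was lower in GMPs than in CMPs by 4.41 and higher than in cMoPs by 1.49. Of 28 erythroid genes listed, 20 were measured, and Car1 was the 1 called. Of the list, 11 differed above 0 and 9 below it (median 0.03), and the list's mean signal was 4.93 to 5.08 on the control arrays and 5.01 to 5.22 on the antibiotic arrays, with 0 of the 20 below the lower quartile. Hemgn, an erythroid nuclear protein, differed by 0.71 ± 0.23 (adjusted p = 0.5135). Kel, a blood-group antigen gene, read 4.38 and 4.16 against 3.35, 3.53 and 3.89 (-0.68 ± 0.20, adjusted p = 0.4491), and Tfrc, the transferrin receptor, differed by -0.41 (adjusted p = 0.6094). The erythroid markers Klf1 (0.33), Rhag (0.20) and Epor (-0.07) were not called, with the arrays of the waters overlapping in each. The globin genes were not among the genes analysed here. The part of erythroid cells in the Car1 difference was not tested, and in sorted bulk samples more cells of a type and more RNA per cell cannot be told apart. Of 14 carbonic anhydrase genes Car1 was the 1 called, and Car13 had a value below 0 (-1.04 ± 0.31, adjusted p = 0.4612).

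Chil3, a chitinase-like lectin (Ym1) made by maturing neutrophils and by monocytes and macrophages, read 8.21 and 8.35 on the control arrays and 9.37, 9.94 and 9.11 on the antibiotic arrays. It was higher by 1.19 ± 0.23 (2.29-fold, adjusted p = 0.1845), and was called in 11 of 27 alternative settings. It was the 1 called gene of 33 measured genes of late granules and mature neutrophils. In this list 12 genes (36.4%) had all antibiotic arrays above the controls and 2 (6.06%) had them below, against 10.4% and 12.6% of all genes. The list's median was 0.10, and its mean signal was 7.05 to 7.15 on the control arrays and 7.21 to 7.32 on the antibiotic arrays, with Olfm4 and Stfa3 below the lower quartile. Fcnb, ficolin B, read 8.80 and 8.53 on the control arrays and 9.84, 9.91 and 9.50 on the antibiotic arrays (1.08 ± 0.23, adjusted p = 0.2568). Its arrays did not overlap, but it missed the threshold. Ltf, Camp and Ngp, genes of secondary granules, did not share one direction, while 19 of the 33 list members differed above 0 and 14 below it. Ltf, lactoferrin, read 7.57 and 7.57 against 7.15, 7.16 and 7.06 (-0.45 ± 0.21, adjusted p = 0.6656). Camp, the cathelicidin gene, differed by 0.40 ± 0.20 (adjusted p = 0.6975) and Ngp by -0.12 ± 0.17 (adjusted p = 0.9215). The part of more mature neutrophils in the Chil3 difference was not tested.

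Ly96 encodes MD-2, the protein that binds bacterial lipopolysaccharide together with TLR4. It read 5.42 and 5.07 on the control arrays and 4.06, 4.07 and 4.48 on the antibiotic arrays. It was lower by 1.04 on the log2 scale (difference -1.04 ± 0.20, adjusted p = 0.1845), and was called in 12 of 27 alternative settings. Tlr4, its partner, differed by -0.05 ± 0.21 (adjusted p = 0.9775), with overlapping arrays. Cd14, the co-receptor that hands lipopolysaccharide to this complex, read 3.79 and 3.78 on the control arrays and 5.30, 4.34 and 4.44 on the antibiotic arrays (0.91 ± 0.36, adjusted p = 0.5938). Of 40 measured genes of Toll-like receptor and NF-kB signalling, Ly96 was the 1 called, 20 differed above 0 and 20 below it, and the median was -0.01. Tlr3 (-0.57 ± 0.18, adjusted p = 0.4881) and Bcl3 (-0.71 ± 0.26, adjusted p = 0.5416) were not called.

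Zbtb16 encodes PLZF, a zinc-finger transcriptional repressor of progenitor cells and a known target of the glucocorticoid receptor. It read 5.70 and 6.18 on the control arrays and 6.75, 7.0 and 7.33 on the antibiotic arrays. It was higher by 1.09 ± 0.22 (2.12-fold, adjusted p = 0.1969), just inside the threshold, and kept its call in 10 of 27 alternative settings. Of 20 genes of the glucocorticoid response, it was the 1 called. In that list 12 differed above 0 and 8 below it, and the median was 0.22, against -0.01 for all genes. In 6 of the 20 (30.0%) all antibiotic arrays lay above the controls, against 10.4% of all genes. In 2 of the 20 they lay below, against 12.6% of all genes. The list's mean signal was 6.15 on both control arrays and 6.28 to 6.34 on the antibiotic arrays. The members did not all share this direction. Sgk1 read 4.97 and 5.34 against 4.59, 4.60 and 4.30 (-0.66 ± 0.22, adjusted p = 0.5197). Nfkbia, the NF-kB inhibitor, differed by 0.37 ± 0.18 (adjusted p = 0.6896).

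Fmnl2 and Cep135 belong to the cytoskeleton. Fmnl2, a formin that extends actin filaments, read 5.02 and 4.83 on the control arrays and 5.88, 6.12 and 5.87 on the antibiotic arrays (1.03 ± 0.17, adjusted p = 0.06006). Cep135, a centriole protein, read 5.34 and 5.91 on the control arrays and 6.79, 6.68 and 6.51 on the antibiotic arrays (1.03 ± 0.19, adjusted p = 0.1366). In Cep135 the control arrays lay farther apart than the antibiotic arrays, and the difference was 0.75 without the lower control array. Ppic encodes cyclophilin C, a peptidyl-prolyl isomerase of the secretory pathway. It read 8.80 and 8.91 on the control arrays and 7.38, 7.46 and 8.02 on the antibiotic arrays, with antibiotic replicate 3 nearest the controls (-1.24 ± 0.22, adjusted p = 0.1014). Smco4, a small single-pass membrane protein, read 6.87 and 7.02 against 5.94, 5.52 and 5.80 (-1.19 ± 0.23, adjusted p = 0.1752).

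The remaining called genes have little known role in myeloid cells. Hormad2, a protein of meiotic chromosomes, read 3.53 and 4.10 on the control arrays and 2.55, 2.80 and 2.78 on the antibiotic arrays (-1.10 ± 0.19, adjusted p = 0.07281). BC051142 read 2.74 and 2.49 against 3.80, 3.64 and 3.72 (1.10 ± 0.17, adjusted p = 0.06006). Both were near the dim end of the arrays in 1 of the waters. A930041C12Rik read 5.15 and 5.25 on the control arrays and 7.06, 7.14 and 6.36 on the antibiotic arrays (1.65 ± 0.29, 3.15-fold, adjusted p = 0.1004). Gm5785 read 5.27 and 5.36 against 6.85, 6.40 and 6.22 (1.18 ± 0.19, adjusted p = 0.06006). In both genes the control arrays lay within 0.10 of each other and antibiotic replicate 3 was the lowest antibiotic array.

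Next in order of p among the lower genes, and not called, were Olfr740, Mreg, Rhoj, Oas3 and Grb10. Grb10, an adaptor that dampens growth factor receptor signalling, read 5.82 and 5.58 on the control arrays and 4.90, 4.06 and 4.78 on the antibiotic arrays (-1.12 ± 0.25, adjusted p = 0.2899). Mreg, which takes part in the transport of lysosome-related organelles, differed by -0.92 ± 0.20 (adjusted p = 0.2672). Rhoj, a small GTPase, differed by -0.72 ± 0.15 (adjusted p = 0.2673).

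**Figure D3:**
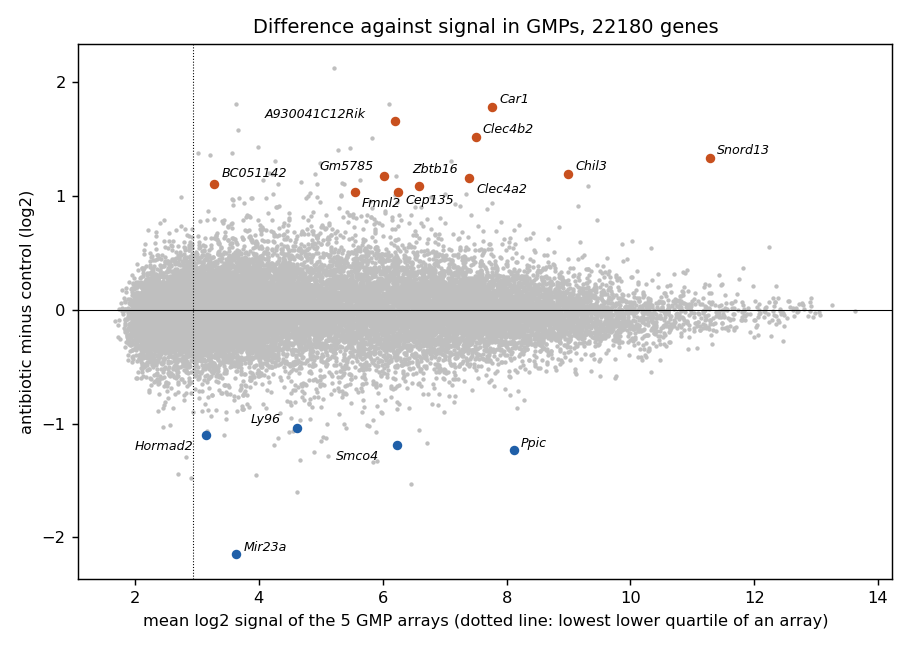
Each point is 1 of 22180 genes, with its mean log2 signal over the 5 GMP arrays on the x axis and its difference, antibiotic minus control in log2, on the y axis. Orange points are the 11 genes called higher and blue points the 5 called lower, the dotted line is at 2.93, and the called genes are among 78 that differ at least 2-fold.

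The label of the sorted cells was checked over both waters at a rate under 0.05, at which 7.87% of all genes were higher in GMPs than in CMPs and 8.17% lower, and 2.82% were higher than in cMoPs and 2.60% lower. Fcgr3, which encodes CD16, was higher in GMPs than in CMPs by 3.14 (adjusted p = 3.384e-10), and Fcgr2b, which encodes CD32, by 2.08. Csf1r, which encodes CD115, was lower in GMPs than in cMoPs by 1.95 (difference -1.95, adjusted p = 2.68e-07). Against CMPs, Csf1r was higher in GMPs by 0.58 (adjusted p = 0.00378), although GMPs were sorted as CD115- cells. Eng, which encodes CD105, was lower than in CMPs (difference -1.62, adjusted p = 6.262e-06), but no difference from cMoPs was called (-0.41, adjusted p = 0.2979). Kit and Cd34 were lower in GMPs than in CMPs (differences -0.48 and -0.47). Of the 18 tests of 9 gate genes, 12 were called, a count that takes either direction and so does not by itself check the label. Between the waters none of the gate genes was called in GMPs. At an unadjusted p of limma under 0.05, 3 of the 9 (33.3%) were lower, namely Cd34, Eng and Csf1r, and 0 were higher. Of all genes, 4.22% were lower and 3.27% higher at that p. Fcgr3 differed by 0.00, Kit by 0.06, Cd34 by -0.31 (adjusted p = 0.5974), Eng by -0.61 (adjusted p = 0.6381) and Csf1r by -0.43 (adjusted p = 0.6397). Of 10 measured genes of the lineage panel 0 were called (median 0.03), with the lowest value for Thy1 (-0.61 ± 0.40, adjusted p = 0.779). Xist was bright on all 5 GMP arrays and the 3 Y-linked genes measured were below the lower quartile.

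No gene in the list of primary granules was called, and its 24 measured members had differences from -0.40 to 0.63. The list also held genes of other roles, such as Calr and Prom1, and Prom1 had the highest value. Its range and shares are therefore not those of granule contents alone. Among the marker genes listed for GMPs, Mpo, myeloperoxidase, read 12.98 and 12.98 on the control arrays and 12.82, 12.96 and 12.97 on the antibiotic arrays. Elane, neutrophil elastase, read 12.81 and 12.78 against 12.71, 12.76 and 12.93. Their differences were -0.06 ± 0.13 and 0.01 ± 0.29. The serine proteases Prtn3 (-0.11), Ctsg (0.02) and Prss57 (0.10) and the membrane protein Ms4a3 (0.06) complete these markers. The members of smallest p in the list were farther from 0. Ctsc, cathepsin C, which activates granule proteases, read 8.07 and 8.36 on the control arrays and 7.94, 7.66 and 7.85 on the antibiotic arrays (-0.40 ± 0.19, adjusted p = 0.6748). Prom1, which encodes CD133, read 6.70 and 6.99 against 7.63, 7.71 and 7.07 (0.63 ± 0.31, adjusted p = 0.6924). Calr, the chaperone calreticulin, differed by -0.22 ± 0.12 (adjusted p = 0.7344), and the arrays of the waters did not overlap in these 3 genes. In the list, all antibiotic arrays lay above the controls in 16.7% and below them in 12.5%, against 10.4% and 12.6% of all genes. Serpinb1a, an inhibitor of granule proteases, differed by 0.24 ± 0.17 (adjusted p = 0.8046). Of the 24 members 13 differed above 0 and 11 below it, and the median was 0.01. The list's mean signal was 9.65 to 9.66 on the control arrays and 9.67 to 9.69 on the antibiotic arrays.

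Transcription factors of granulocytes and monocytes had 41 measured members and 0 calls, with 22 above 0, 19 below it and a median of 0.01. Id2, an inhibitor of helix-loop-helix factors, read 6.03 and 6.76 on the control arrays and 6.76, 7.95 and 7.51 on the antibiotic arrays (1.01 ± 0.33, adjusted p = 0.5105). Hoxa9, a homeobox factor of immature progenitors, read 6.70 and 7.23 against 6.52, 6.08 and 6.34 (-0.65 ± 0.22, adjusted p = 0.5235). Gfi1b, a transcriptional repressor active in the erythroid and megakaryocyte lineages, differed by 0.51 ± 0.19 (adjusted p = 0.5653). Named for their roles and not by rank, Cebpa differed by 0.12 ± 0.26, Spi1 (PU.1) by -0.08 ± 0.15 and Gfi1 by 0.22 ± 0.24, with overlapping arrays. Cebpe, the C/EBP factor of secondary granule genes, read 9.21 and 9.25 on the control arrays and 9.62, 9.55 and 9.69 on the antibiotic arrays (0.39 ± 0.26, adjusted p = 0.779). Irf8, a factor of the monocyte and dendritic cell fates, read 9.40 and 9.09 against 8.68, 8.33 and 9.64 (-0.36 ± 0.27, adjusted p = 0.8147), so antibiotic replicate 3 was its highest array and antibiotic replicate 2 its lowest.

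Over all genes 0.0721% were called in GMPs, so 0 calls in a list of cell type genes says little about that list. Of 40 measured monocyte genes Clec4a2 and Clec4b2 were called higher, 17 differed above 0 and 23 below it, and the median was -0.02. At an unadjusted p of limma under 0.05, 12.5% were higher and 17.5% lower, against 3.27% and 4.22% of all genes. All antibiotic arrays lay above the controls in 12.5% and below in 20.0%, against 10.4% and 12.6% of all genes. Pld4, an endolysosomal nuclease, read 7.51 and 7.31 on the control arrays and 5.47, 6.25 and 7.0 on the antibiotic arrays (-1.17 ± 0.30, adjusted p = 0.3861). Ccr2, the chemokine receptor by which monocytes leave the marrow, read 8.30 and 7.88 against 7.48, 7.40 and 7.48 (-0.64 ± 0.20, adjusted p = 0.4939). The list's mean signal was 6.45 to 6.51 on the control arrays and 6.36 to 6.51 on the antibiotic arrays, so it overlapped between the waters. Clec4n was the 1 member below the lower quartile, and the part of monocyte-lineage cells in the Clec4 differences was not tested.

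No member was called in the lists of megakaryocytes (18 measured, median 0.11), eosinophils with basophils and mast cells (23, -0.02), stem and multipotent progenitors (29, -0.04), macrophages (20, -0.05), dendritic cells with MHC class II (18, 0.12), the B lineage (18, -0.04), T and NK cells (19, -0.08) or stromal and endothelial cells (19, 0.01). Among the megakaryocyte genes, Itga2b, which encodes CD41, read 5.42 and 5.33 on the control arrays and 6.03, 6.24 and 6.25 on the antibiotic arrays (0.80 ± 0.25, adjusted p = 0.4993), while Thbs1, thrombospondin 1, differed by -0.82 ± 0.20 (adjusted p = 0.3712). Cpa3, a mast cell and basophil protease, differed by 0.58 ± 0.21 (adjusted p = 0.5569). Muc13, a mucin of early progenitors, read 9.54 and 9.83 against 9.19, 9.08 and 9.16 (-0.54 ± 0.15, adjusted p = 0.4347). Vcam1 differed by 0.69 ± 0.21 (adjusted p = 0.4612) and H2-Ab1, an MHC class II gene, by 0.35 ± 0.19 (adjusted p = 0.7175). Pdgfrb, a receptor of stromal cells, differed by 0.76 ± 0.21 (adjusted p = 0.4344).

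**Figure D4:**
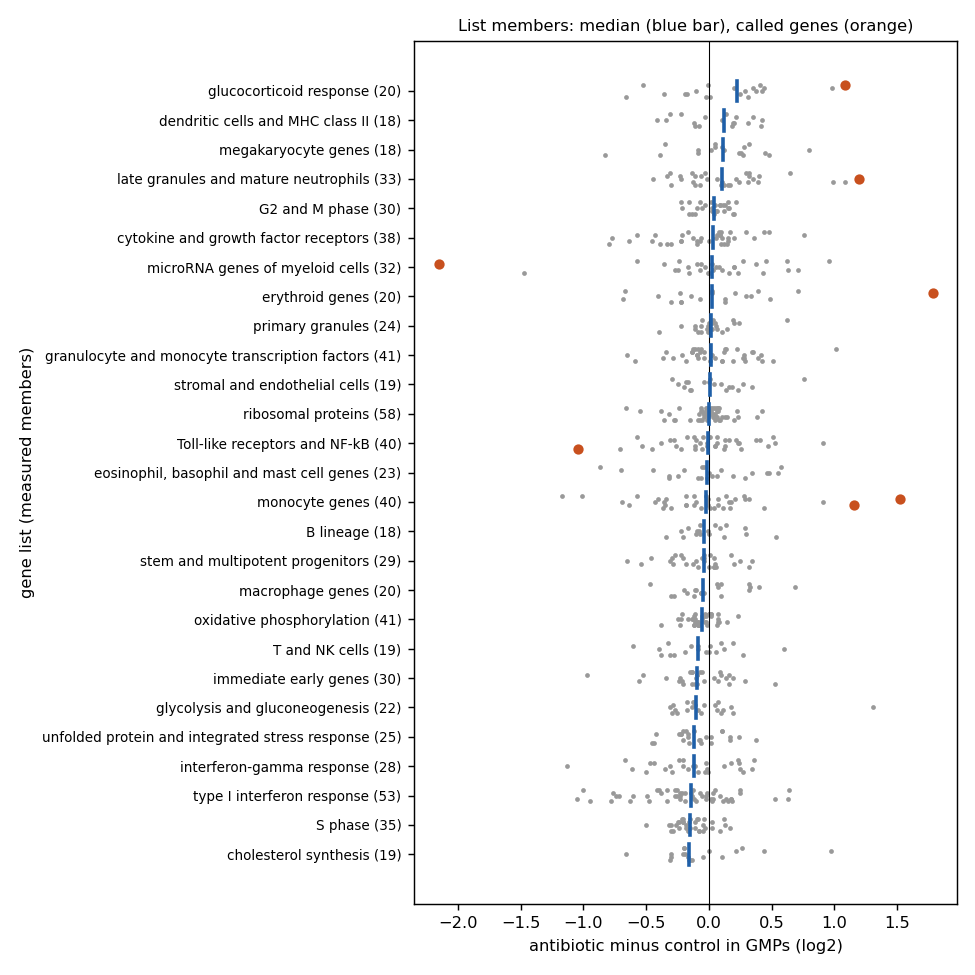
Each grey point is a measured member of a gene list (y axis, members in parentheses), placed by its difference in GMPs, antibiotic minus control in log2 (x axis), with the list's median as a blue bar and called genes in orange. Each list holds at most 1 called gene except the monocyte genes with 2, and the medians lie between -0.16 for cholesterol synthesis and 0.22 for the glucocorticoid response.

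Interferon-response genes had no call in GMPs and more members below 0 than above it. Of 53 measured genes of the type I interferon response, 36 differed below 0 and 17 above it, against 52.2% of all genes below 0 and 47.4% above it. In 15 of them (28.3%) all antibiotic arrays lay below the controls, and in 3 (5.66%) above, against 12.6% and 10.4% of all genes. The list's median was -0.14, beside -0.32 in CMPs and -0.19 in cMoPs. Its mean signal was 6.03 to 6.08 on the control arrays and 5.78 to 5.94 on the antibiotic arrays. Ifitm3, an antiviral membrane protein, read 10 and 10.24 on the control arrays and 9.52, 9.26 and 9.77 on the antibiotic arrays (-0.60 ± 0.16, adjusted p = 0.3844). Xaf1, an interferon-induced regulator of cell death, read 7.23 and 7.21 against 6.05, 5.66 and 6.79 (-1.05 ± 0.29, adjusted p = 0.4327). Oas3, a sensor enzyme of viral double-stranded RNA, read 5.04 and 5.15 against 4.12, 4.12 and 4.20 (-0.95 ± 0.21, adjusted p = 0.2851). In Ifitm3 and Xaf1, antibiotic replicate 3 lay nearest the controls.

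Of 28 measured genes of the interferon-gamma response, 20 differed below 0 and 8 above it (median -0.12). In 8 of them (28.6%) the antibiotic arrays all lay below the controls and in 3 (10.7%) above, against 12.6% and 10.4% of all genes. The mean signal was 6.39 to 6.51 on the control arrays and 6.24 to 6.42 on the antibiotic arrays, so it overlapped between the waters. Gbp5, a guanylate-binding protein, read 4.75 and 5.23 on the control arrays and 3.74, 3.58 and 4.26 on the antibiotic arrays (-1.13 ± 0.26, adjusted p = 0.3622). Psmb9, a subunit of the immunoproteasome, read 11.13 and 11.13 against 10.61, 10.82 and 10.92 (-0.35 ± 0.13, adjusted p = 0.5795).

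Genes of DNA replication also lay mostly below 0 without a call. Of 35 measured S-phase genes, 29 differed below 0 and 6 above it, against 52.2% of all genes below 0. In 11 (31.4%) all antibiotic arrays lay below the controls and in 1 (2.86%) above, against 12.6% and 10.4% of all genes. The median was -0.15, beside -0.11 in CMPs and 0.01 in cMoPs, and the mean signal was 8.61 on both control arrays and 8.46 to 8.50 on the antibiotic arrays. Gins3, the member of smallest p, read 8.17 and 7.52 against 7.79, 7.05 and 7.20 (-0.50 ± 0.21, adjusted p = 0.6281), with overlapping arrays. Mcm10, a replication initiation factor, read 7.60 and 7.59 against 7.09, 7.43 and 7.41 (-0.28 ± 0.13, adjusted p = 0.6686). Chaf1b, a chromatin assembly factor subunit, differed by -0.30 ± 0.15 (adjusted p = 0.6868). The 30 genes of G2 and M phase did not lean that way, with 20 above 0, 10 below it and a median of 0.04. Mki67, the proliferation marker, read 9.77 and 9.60 on the control arrays and 9.72, 10 and 9.92 on the antibiotic arrays (0.20 ± 0.14, adjusted p = 0.8142).

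In the lists of metabolism, ribosomal proteins, protein stress, immediate early genes and receptors, 0 genes were called. Of all genes, 52.2% differed below 0. All antibiotic arrays lay below the controls in 36.36% of glycolysis and gluconeogenesis genes, 31.58% of cholesterol synthesis genes and 26.32% of receptor genes. They lay above in 13.64%, 21.05% and 18.42%, against 12.6% below and 10.4% above for all genes. Such shares below were thus not limited to the interferon and S-phase lists. Ribosomal proteins had 6.897% below and 10.34% above. Cholesterol synthesis had 13 of 19 genes below 0 (median -0.16), but Nsdhl (-0.66 ± 0.19, adjusted p = 0.4344) and Fdft1, squalene synthase (0.98 ± 0.28, adjusted p = 0.4488), lay on opposite sides. Glycolysis and gluconeogenesis had 14 of 22 below 0 (median -0.10), with Fbp1, fructose-bisphosphatase, the other way. Fbp1 read 6.38 and 6.25 on the control arrays and 7.74, 7.48 and 7.64 on the antibiotic arrays (1.30 ± 0.36, adjusted p = 0.4327), and differed by 1.07 in CMPs and 1.63 in cMoPs. Oxidative phosphorylation had 29 of 41 below 0 (median -0.05), and ribosomal proteins had 28 of 58 below 0 (median 0.01). The unfolded protein and integrated stress response had 17 of 25 below 0 (median -0.12). In that list Pdia6, a disulfide isomerase of the endoplasmic reticulum, read 10.44 and 10.55 against 9.90, 10.14 and 10.19 (-0.42 ± 0.13, adjusted p = 0.5086), while Edem1, which targets misfolded proteins for degradation, differed by 0.37 ± 0.13 (adjusted p = 0.5328). Immediate early genes had 20 of 30 below 0 (median -0.10), and Jun read 7.04 and 5.81 against 5.21, 5.69 and 5.47, so that control replicate 1 stood far above the rest (-0.97 ± 0.45, adjusted p = 0.6634). Cytokine and growth factor receptors had 20 of 38 above 0 (median 0.03). Il6ra, the interleukin-6 receptor, read 8.82 and 8.70 on the control arrays and 7.64, 7.99 and 8.26 on the antibiotic arrays (-0.80 ± 0.20, adjusted p = 0.3712).

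The genes called in GMPs were then read in the neighbouring progenitors, where 9 genes were called in CMPs (0.0406%) and 29 in cMoPs (0.131%). None of the 16 was called in CMPs. In cMoPs 5 of the 16 were called in the same direction as in GMPs, namely Clec4a2 (1.89, adjusted p = 0.000484), Clec4b2 (1.42, adjusted p = 0.1219), Snord13 (0.97, adjusted p = 0.1219), Ppic (-1.20, adjusted p = 0.1219) and Zbtb16 (1.16, adjusted p = 0.1295). The sign matched that in GMPs for 12 of the 16 in CMPs and for 15 of the 16 in cMoPs, against 54.9% and 53.1% of all genes. Over all genes, the differences in GMPs correlated with those in CMPs at r = 0.148 and with those in cMoPs at r = 0.109. These values are across genes, which are not independent.

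The difference of the responses was tested directly. Against the mean of the CMP and cMoP differences, 0 genes were called by limma (0%), with an unadjusted p under 0.05 for 1174 (5.29%), so none of the 16 was shown to be particular to GMPs. Without GMP control replicate 1 this test called 4 genes, and without GMP control replicate 2 it called 9. Against cMoPs alone 0 genes were called (0%). Against CMPs alone 5 genes were called (0.0225%), of which Car1, Clec4a2, BC051142 and Ly96 were among the 16. Car1 differed by 0.09 in CMPs, beside 1.78 in GMPs (adjusted p of the gap = 0.07184). Clec4a2 differed by -0.55 in CMPs (adjusted p of the gap = 0.0669), and so stood on opposite sides of 0 in these progenitors. Ly96 differed by 0.56 in CMPs and 0.20 in cMoPs, beside -1.04 in GMPs (adjusted p of the gap to CMPs = 0.1293). For the other 12 called genes no difference from the response in CMPs was shown.

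**Figure D5:**
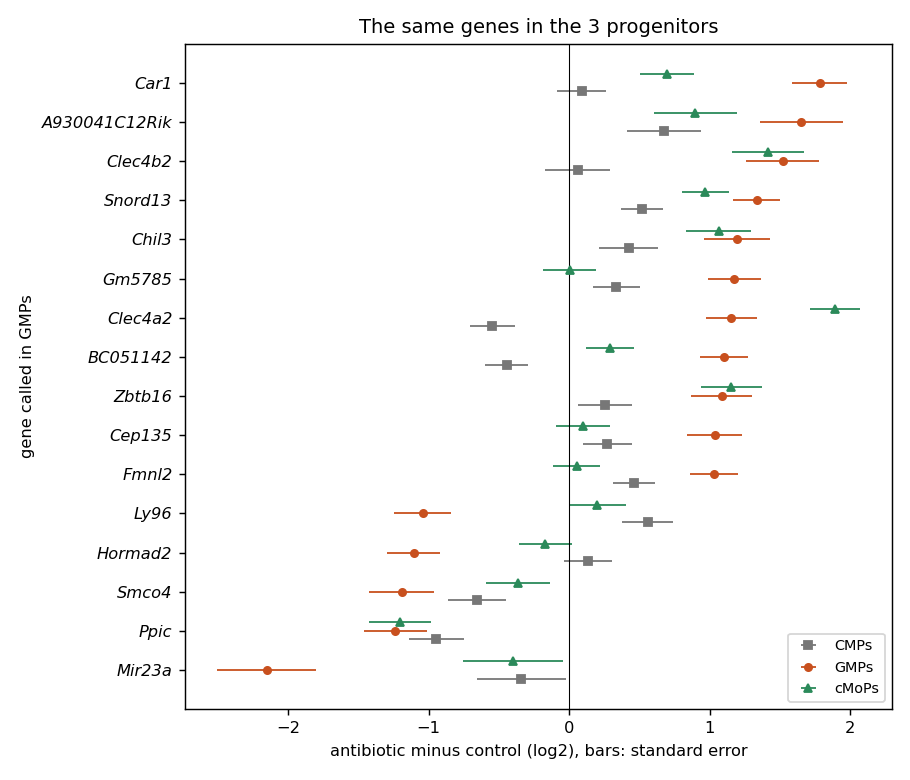
Difference, antibiotic minus control in log2 with its standard error (x axis), of the 16 genes called in GMPs (y axis) in CMPs, GMPs and cMoPs. The genes were chosen for their GMP values, which are larger in size than those of CMPs in all 16 and than those of cMoPs in 14, the exceptions being Clec4a2 and Zbtb16.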

How the data were processed

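Deposited values are log2 signals, 1 for every probe set on every array. According to the submitters' processing notes, the authors used Transcriptome Analysis Console and Partek. How signals were summarised and normalized, and the array's genome build, is not given in the sources used here. RNA (2.6 ng) was amplified with a whole-transcriptome kit, per the labels' protocols. Of 41345 probe sets, 23521 carried 1 gene symbol. The probe set with the highest mean was kept for each of 22180 genes, and the values were used as deposited (medians of the arrays 4.04 to 4.17). Arrays give no count per sample, so their number limits the precision.

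Group means of the 6 groups were fitted with limma 3.58.1 (R 4.3.3) on all 16 arrays, with 10 residual degrees of freedom and moderated variances. Tests are two-sided. The script was tested on simulated data. Named genes were the called genes, the genes of smallest p among the lower ones up to 10 (of which some are described), up to 4 members of smallest p per list, gate genes and the microRNA genes of 1 cluster. Genes named by role alone stand outside this rule. The comparison, lists and rules were chosen with earlier results of these data known. Lists were counted, with no test of a list.

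The labels do not say whether replicate numbers pair the samples, and the main fit treated the arrays as unpaired. Deviations of same-numbered GMP arrays correlated at -0.0169 and -0.012. Those of the same water and number in another progenitor correlated at -0.049 to 0.0435 (10 pairs). The deviations of the 2 GMP control arrays mirror each other (r = -1), so these values cannot decide whether the numbers pair samples. Alternatives changed the probe sets, the filter, the scaling, the variances, the arrays fitted and the replicate block.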

Additional observations from a re-analysis of the deposited data

Results flagged for a closer look

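A test of the difference between progenitors found 5 genes whose response to antibiotic water in GMPs was unlike that in CMPs (limma, adjusted p under 0.2). The GMP difference minus the CMP difference was 1.69 for Car1, 1.7 for Clec4a2, 1.55 for BC051142, -1.6 for Ly96 and 3.02 for Pilrb1. Pilrb1, an activating receptor of the paired immunoglobulin-like type 2 family, was not called in GMPs alone. It read 5.12 and 4.93 on the control arrays and 6.47, 7.25 and 6.77 on the antibiotic arrays of GMPs, a difference of 1.80 ± 0.38 (adjusted p = 0.2568), with arrays that did not overlap. In CMPs it differed by -1.22 ± 0.34 (adjusted p = 0.3899) and in cMoPs by 0.24 ± 0.38 (adjusted p = 0.9745). Of these 5 genes none passed against the mean of CMPs and cMoPs, where the adjusted p was 0.2735 for Car1, Ly96 and BC051142, 0.7215 for Pilrb1 and 0.9388 for Clec4a2, which differed by 1.89 in cMoPs.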

How the results depend on the processing

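The 16 calls in GMPs became 27 with only genes above the median gene (13 of the 16 among them) and 27 with trend and robust variances (all 16 among them). With unmoderated variances 2 were left, and with only the GMP arrays and 3 residual degrees of freedom limma called 0, with 1578 at an unadjusted p under 0.05. Leaving out each of the 16 arrays gave 2 to 42 calls. The contrast with the other progenitors, with 0 calls, gave 1 with every probe set tested, 1 with trend and robust variances, and 0 to 9 when each array was left out. The 12 calls of gate genes stayed between 10 and 12. Testing every probe set called 13, with 6 of the 16 among them; quantile normalization called 17 and median centring 14. A replicate block, with the number as a term, gave 21 calls with 13 of the 16 among them, Ppic at an adjusted p of 0.01838 being its lowest over all settings. With water and number as a random block (correlation 0.011) there were 16. Over 27 alternatives, Car1 and Snord13 kept their call in 26, Clec4a2 and Fmnl2 in 22, and Ly96, Chil3 and Zbtb16 in 12, 11 and 10, while no named gene that was called changed sign. Car1 ranged from 1.61 to 1.90 and its adjusted p from 6.848e-05 to 0.3499. With quantile normalization and with median centring, the median was -0.18 and -0.16 for the type I interferon response, -0.12 and -0.17 for S phase, and 0.13 and 0.09 for late granules, while medians within 0.03 of 0 changed sign in several lists. The causes of these changes were not tested.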

Other observations

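Olfactory receptor genes, which are mostly silent outside the nose, were a large group of dim genes in GMPs, with 785 of 1105 below the lower quartile. None was called, 648 differed below 0 and 455 above it, and the median was -0.05. All antibiotic arrays lay below the controls in 178 of them (16.1%) and above in 88 (7.96%), against 12.6% and 10.4% of all genes. Olfr740 read 2.88 and 3.12 on the control arrays and 2.18, 2.16 and 2.32 on the antibiotic arrays (-0.78 ± 0.16, adjusted p = 0.2254).

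The receptors of the paired immunoglobulin-like type 2 family had 3 measured genes, each with a value above 0 in GMPs. Beside Pilrb1, Pilra read 4.34 and 5.30 on the control arrays and 5.48, 5.85 and 5.14 on the antibiotic arrays (0.67 ± 0.31, adjusted p = 0.6573). Pilrb2 differed by 0.58 ± 0.32 (adjusted p = 0.7346), with overlapping arrays. Among microRNA genes, Mir677 read 4.96 and 4.87 against 6.98, 6.26 and 6.03 (1.51 ± 0.37, adjusted p = 0.3712), and was not called.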
